A study of Homo sapiens with 4 samples.

Results

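The subunits of the oxidative phosphorylation machinery were followed as messenger RNAs in MV3 spheroids, comparing the spheroid core with the zone of cells invading the surrounding collagen. Members were the gene rows whose symbols mark subunits of complex I (NDUFA, NDUFB, NDUFC, NDUFS, NDUFV and MT-ND genes), complex III (UQCR genes and MT-CYB), complex IV (the numbered COX subunit genes and MT-CO genes) and complex V, the ATP synthase (ATP5 genes and MT-ATP genes). This gave 93 genes of 56304 gene rows, 80 of them nuclear and 13 encoded in mitochondrial DNA, after 96 rows of pseudogenes and readthrough transcripts with matching names had been left out. Of the members, 87 passed the filter on low counts, 74 nuclear and all 13 mitochondrial, and were tested among 15529 genes.

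The MV3 line is an established human line from a highly metastatic melanoma, here carrying H2B-GFP, a fluorescent histone that marks nuclei in every sample of both zones. Spheroids of 50000 cells sat in collagen I until their dissection on day 2, when a 1 mm punch removed the core and a 3 mm punch the invasion zone left around it. Bulk RNAseq libraries were made by low-input cDNA synthesis from total RNA, 2 per zone and 4 in all, and the deposited values were raw counts per gene. A vertical punch can carry cells lying above or below the core along with it, and these spheroids were larger than those used for microscopy. Nothing in the sources used here says that the 2 libraries of a zone came from separate cultures, so the p-values measure the spread between these libraries, which may be technical.

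Oxidative phosphorylation takes place in the inner mitochondrial membrane, where complexes I, III and IV pass electrons to oxygen and pump protons, and complex V uses the returning protons to make ATP. Most subunits are encoded in the nucleus and imported one by one, while a small set of hydrophobic core subunits is made inside the mitochondrion from transcripts of its own circular genome. The mitochondrial genes are transcribed as long precursors from both strands and cut apart, so their mature levels depend on processing and stability as well as on transcription. In bulk libraries such as these, a change in the number of cells of one kind cannot be told apart from a change in the RNA content of each cell.

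Libraries held 11789243 to 37591782 counts, both replicate 2 libraries being the shallower ones, and TMM scaling factors ran from 0.986 to 1.01. Defining melanocyte markers were nearly absent, with SOX10 and TYR at 0 counts in all 4 libraries and a list of 7 markers summing to 2.64 to 5.55 normalised CPM (read counts scaled to a common library size after TMM correction), so these genes could not be used to check the melanoma label. A list of 9 markers of other cell types summed to 19.0 and 8.09 CPM in the core and to 5.68 and 1.09 CPM in the invasion zone, with 2 to 6 of the 9 at 0. Most of this was PECAM1, an adhesion molecule of endothelium, at 18.1 and 7.43 CPM against 5.23 and 0.926 CPM in the invasion zone, while CD3E, a T cell marker, had 0 counts in every library and CDH5, another endothelial gene, had 0, 3, 4 and 0 counts (core 1 and 2, then invasion zone 1 and 2). Their part in the results below was not tested.

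The nuclear subunit genes together took a larger share of the counts among invading cells than in the core. They held 0.745% and 0.751% of all counts in core replicates 1 and 2, and 0.894% and 0.919% in invasion zone replicates 1 and 2. The zones did not overlap, and the libraries of one zone lay close together. The 13 mitochondrial mRNAs behaved otherwise, with 1.11% and 0.743% of all counts in the core and 0.928% and 0.717% in the invasion zone. Here the zones overlapped, and the replicate 1 library was the higher one in each zone by more than the zones differed within either replicate number. Exact 95% binomial intervals were narrow, 1.110 to 1.117% for the first core library as an example, and covered counting error only. Dividing the nuclear share by the mitochondrial share gave 0.669 and 1.01 in the core and 0.963 and 1.28 in the invasion zone, so this ratio was higher in the invasion zone within each replicate number but overlapped between zones. With 2 libraries against 2, an exact two-sided permutation test of a single value cannot give a p below 0.333, and none is given.

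**Figure D1:**
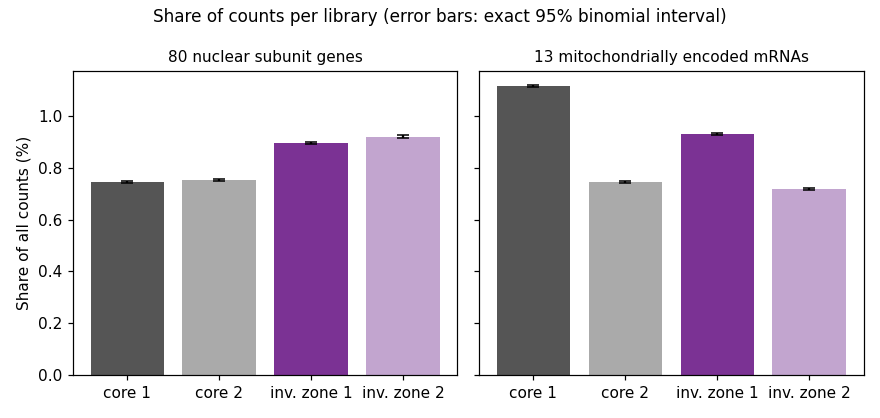
Share of all counts (%, y axis from 0) on the 80 nuclear subunit genes (left) and the 13 mitochondrially encoded mRNAs (right) in each of the 4 libraries, with exact 95% binomial intervals. The nuclear share was 0.745 and 0.751% in the core against 0.894 and 0.919% in the invasion zone, whereas the mitochondrial share followed the replicate number, at 1.11 and 0.928% in replicate 1 and 0.743 and 0.717% in replicate 2.

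Gene by gene, most nuclear subunits were modestly higher in the invasion zone. The fitted log2 fold change (invasion zone over core) was above 0 for 69 and below 0 for 5 of the 74 tested nuclear members, with a median of 0.28 against -0.01 over all 15529 genes. Within replicate 1 the median was 0.30, and within replicate 2 it was 0.26. Both replicate numbers pointed up for 62 nuclear members and down for 4, where 39.8% of all genes tested were higher within both replicate numbers and 40.9% were lower within both. For 45 nuclear members both invasion zone libraries stood above both core libraries, and for 1, COX7A2L, both stood below, where 28.1% of all genes stood above and 30.3% below.

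The edgeR quasi-likelihood test without a replicate term called 0 members higher and 0 lower at an adjusted p under 0.05, as it called 0% and 0% of all genes, the smallest adjusted p of any gene being 0.128. At an unadjusted p under 0.05 the same test listed 21 members as higher and 0 as lower, all 21 nuclear, where 11.9% of all genes were listed higher and 12.4% lower. DESeq2 without a replicate term called 5 members higher (ATP5G1, NDUFS6, NDUFB9, COX7B and NDUFA6) and 0 lower, against 6.67% of its genes higher and 7.09% lower, so by that test the count of higher calls was near the background. limma voom called 0 in either direction. With the replicate number as a block, edgeR called 38 members higher and 4 lower, where 19.4% of all genes were called higher and 19.4% lower. Among the 532 genes tested with short transcripts and a mean of at least 10 CPM, described next, 202 were called higher. Of the members called, 37 higher calls and 0 lower calls were nuclear, and the 4 lower calls were all mitochondrial. Adding a correction for GC content and transcript length to the block gave 44 higher and 9 lower, against 25.9% and 17.6% of all genes. No member reached a 2-fold change with an adjusted p under 0.05 in any of these fits.

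Nuclear members have short transcripts, with a median of 760.5 bases against 2825 over all genes tested, and are well expressed. Among all 532 genes tested with a mean of at least 10 CPM and a transcript under 1000 bases, a comparison chosen after the data were seen, the median log2 fold change was 0.16. The 40 nuclear members inside those limits had a median of 0.28. With the block, edgeR called 19 of these 40 higher and 0 lower, and 202 of the 532 higher and 81 lower, so the members' count of higher calls lay nearer to that of short, well-expressed genes than to the 19.4% of all genes. With GC content and length corrected, the median over all 74 was 0.30 beside 0.07 for all genes. Within the same limits it was 0.24 for the 40 members beside 0.22 for the 532 genes. Most of the gap between these 2 medians was thus gone. The correction with the block called 21 of the 40 higher and 1 lower, and 228 of the 532 higher and 82 lower. Before correction, both invasion zone libraries stood above both core libraries for 26 of the 40 and below for 0. For the 532 genes these counts were 232 and 96.

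**Figure D2:**
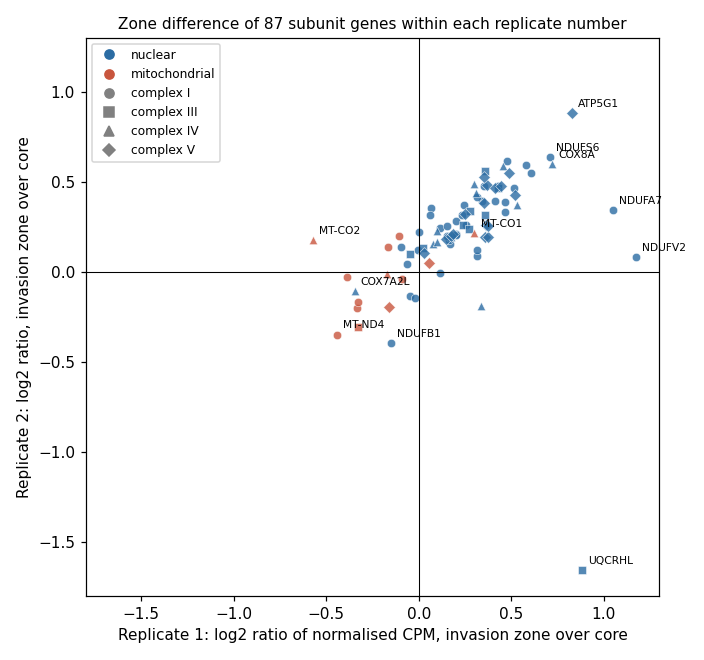
Log2 ratio of normalised CPM, invasion zone over core, within replicate 1 (x axis) and within replicate 2 (y axis) for the 87 tested subunit genes, coloured by genome and shaped by complex. Of the nuclear members, 62 lie above 0 on both axes. Among the 13 mitochondrial genes, 8 lie below 0 on both and MT-CO1 and MT-ATP8 lie above 0 on both. Over all genes tested, 39.8% were higher and 40.9% lower within both replicate numbers.

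All 17 tested nuclear genes placed by name in complex V, the ATP synthase, had a fold change above 0 within both replicate numbers. Their median log2 fold change was 0.32, and for 14 both invasion zone libraries stood above both core libraries. With the replicate block edgeR called 12 of the 17 higher and 0 lower. Of all genes tested, 39.8% were higher within both replicate numbers, 28.1% stood above and 19.4% were called higher. Of the 9550 with a mean of at least 10 CPM, these counts were 4464, 3345 and 2686. Of the 532 short, well-expressed genes they were 320, 232 and 202. ATP5G1 encodes one of 3 nuclear copies of subunit c, which form the rotating ring of the enzyme. It was measured at 34.6 and 42.5 CPM in the core and at 61.5 and 78.2 CPM in the invasion zone, the largest fold change of any member with a mean of at least 10 CPM. Its log2 fold change was 0.86 (SE 0.19, n = 2 libraries per zone), with an edgeR adjusted p of 0.131 without a replicate term and 0.000246 with the block. Here and below, SEs are those of the fit without a replicate term, also beside a p-value from the block. The other copies of subunit c moved less, ATP5G3 by 0.32 (SE 0.14) and ATP5G2 by 0.16 (SE 0.14), and edgeR with the block called ATP5G3 (adjusted p = 0.0124) and not ATP5G2 (adjusted p = 0.127). The difference between these copies was not tested.

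In the catalytic F1 head, ATP5B (beta subunit) was at 482 and 652 CPM in the core and at 693 and 876 CPM in the invasion zone, without overlap, a log2 fold change of 0.47 (SE 0.22) called with the block (edgeR adjusted p = 0.00109). Its partner ATP5A1 (alpha subunit) was at 436 and 496 CPM in the core and 496 and 575 CPM in the invasion zone. The upper core value of ATP5A1 met its lower invasion zone value, and its log2 fold change of 0.20 (SE 0.16) was not called with the block (adjusted p = 0.0517 in edgeR). ATP5C1 (gamma subunit) and ATP5D (delta subunit) were called with the block at log2 fold changes of 0.37 and 0.29, while ATP5E (epsilon subunit) was among the least changed at 0.06 (SE 0.23). Among the stalk and membrane genes, 5 of 7 were called higher with the block, with ATP5J2 (subunit f) highest at 0.46 and ATP5H (subunit d) lowest at 0.19. ATP5SL reached 0.52 and ATP5S 0.43, but current annotation names them DMAC2 and DMAC2L and does not count them among the subunits of the synthase.

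Cytochrome c oxidase, complex IV, hands electrons to oxygen. Its 11 tested nuclear genes had a median log2 fold change of 0.18, and edgeR with the block called 5 higher (COX8A, COX7B, COX5A, COX7A2 and COX6C) and 0 lower. The block called 19.4% of all genes tested higher, and 202 of the 532 short, well-expressed genes. The median of the complex IV genes was 0.43 without core replicate 1, 0.40 without replicate 2 of the invasion zone and 0.28 with COX7A2L left out. COX8A, a small membrane subunit, was at 38.6 and 54.9 CPM in the core and at 63.6 and 83.1 CPM in the invasion zone. The zones did not overlap, and its log2 fold change was 0.65 (SE 0.24), with an edgeR adjusted p of 0.183 without the block and 0.000803 with it. The exons annotated for COX8A share 35.4% of their bases with another gene on the same strand. COX7B gave the same picture with less spread, at 143 and 134 CPM in the core and 196 and 201 CPM in the invasion zone, giving a log2 fold change of 0.52 (SE 0.13).

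COX4I1 and COX5A bind each other in the assembled enzyme. COX4I1, the most abundant nuclear member of the complex per length of transcript at 516 CPM per kb, changed by 0.18 (SE 0.13) and was not called with the block (edgeR adjusted p = 0.0687), whereas COX5A changed by 0.45 (SE 0.14) and was called (edgeR adjusted p = 0.00473). The least changed were COX6B1 at 0.11 (SE 0.15) and COX7C at 0.12 (SE 0.35). COX7A2L, which joins complexes III and IV into supercomplexes, had the opposite sign, at 222 and 218 CPM in the core and 175 and 203 CPM in the invasion zone, giving a log2 fold change of -0.22 (SE 0.14). It was the nuclear member whose invasion zone libraries both fell under both core libraries, and it was called lower with the block plus the GC and length correction (edgeR adjusted p = 0.00649) but not with the block alone (adjusted p = 0.0606).

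Complex III, which passes electrons from ubiquinol to cytochrome c, had 9 tested nuclear genes, all with a fold change above 0 and a median log2 fold change of 0.25. The block fit called 5 of them higher and 0 lower. It called 19.4% of all genes tested higher, and 2686 of the 9550 with a mean of at least 10 CPM. UQCR10, a small accessory subunit, was at 82.6 and 76.2 CPM in the core and 106 and 112 CPM in the invasion zone, without overlap, a log2 fold change of 0.46 (SE 0.14) and an adjusted p of 0.00409 in edgeR with the block. UQCRFS1, the Rieske iron-sulfur protein that takes the first electron, changed by 0.45 (SE 0.15), from 94.0 and 105 CPM to 127 and 146 CPM. The core protein UQCRC1 changed by 0.09 (SE 0.20) and UQCRB by 0.02 (SE 0.20), neither being called in edgeR with the block, and UQCRC2 was called at 0.25.

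Complex I takes electrons from NADH and is the largest of the chain. Its 37 nuclear genes had a median log2 fold change of 0.23, 19 stood above in both invasion zone libraries and 0 below, and the block fit called 15 higher and 0 lower. The iron-sulfur and flavoprotein genes NDUFS and NDUFV, which include the electron-carrying arm, accounted for 7 of these calls among 11 genes (median 0.28). The NDUFA genes gave 4 of 13 (median 0.21) and the NDUFB and NDUFC genes 4 of 13 (median 0.20). Of all genes tested, 28.1% stood above and 19.4% were called higher with the block. Of the 532 short, well-expressed genes, 232 stood above and 202 were called higher. Differences between the families of complex I genes were not tested. NDUFS6, a zinc-binding subunit, was at 31.5 and 34.0 CPM in the core and 51.6 and 52.9 CPM in the invasion zone, with little spread inside each zone. Its log2 fold change was 0.67 (SE 0.14), with an edgeR adjusted p of 0.128 without the block and 0.00094 with it.

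NDUFB9, an accessory subunit of the membrane arm, was at 98.0 and 109 CPM in the core and 146 and 165 CPM in the invasion zone, giving a log2 fold change of 0.59 (SE 0.15). NDUFS8, which carries iron-sulfur clusters, changed by 0.57 (SE 0.21), and NDUFA6 by 0.55 (SE 0.13), all 3 being called by edgeR with the block. The flavoprotein NDUFV1, which binds NADH, and NDUFS1, the largest subunit of the electron-carrying arm, changed less, by 0.25 (SE 0.22) and 0.26 (SE 0.13), and were called with the block at edgeR adjusted p-values of 0.0419 and 0.0227. NDUFV1 was at 92.5 and 120 CPM in the core and 106 and 146 CPM in the invasion zone, overlapping, and its fold change was 0.0029 without replicate 2 of the invasion zone and 0.46 without replicate 1 of that zone. NDUFA4 carries a complex I name but belongs to complex IV by function, and changed by 0.43 (SE 0.13).

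Other members of complex I did not follow this direction. NDUFB1 was at 88.8 and 61.1 CPM in the core and 79.9 and 46.5 CPM in the invasion zone, overlapping between zones and lower within each replicate number, with a log2 fold change of -0.24 (SE 0.32). NDUFA3 and NDUFA2, both accessory subunits, stood at -0.08 (SE 0.16) and -0.07 (SE 0.31). NDUFA7 and NDUFV2 had the largest fitted values of the complex, 0.87 (SE 0.74) and 0.83 (SE 0.55), on few counts. NDUFV2, the partner of NDUFV1, had 97 and 30 counts in the core and 229 and 25 in the invasion zone, so the difference came from replicate 1. NDUFA7 had 24 and 5 counts in the core and 52 and 5 in the invasion zone. The exons of these genes share 28.4% and 32.5% of their bases with neighbouring genes (NDUFV2 and NDUFA7 in that order), and the effect of that overlap on their low counts was not tested.

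**Figure D3:**
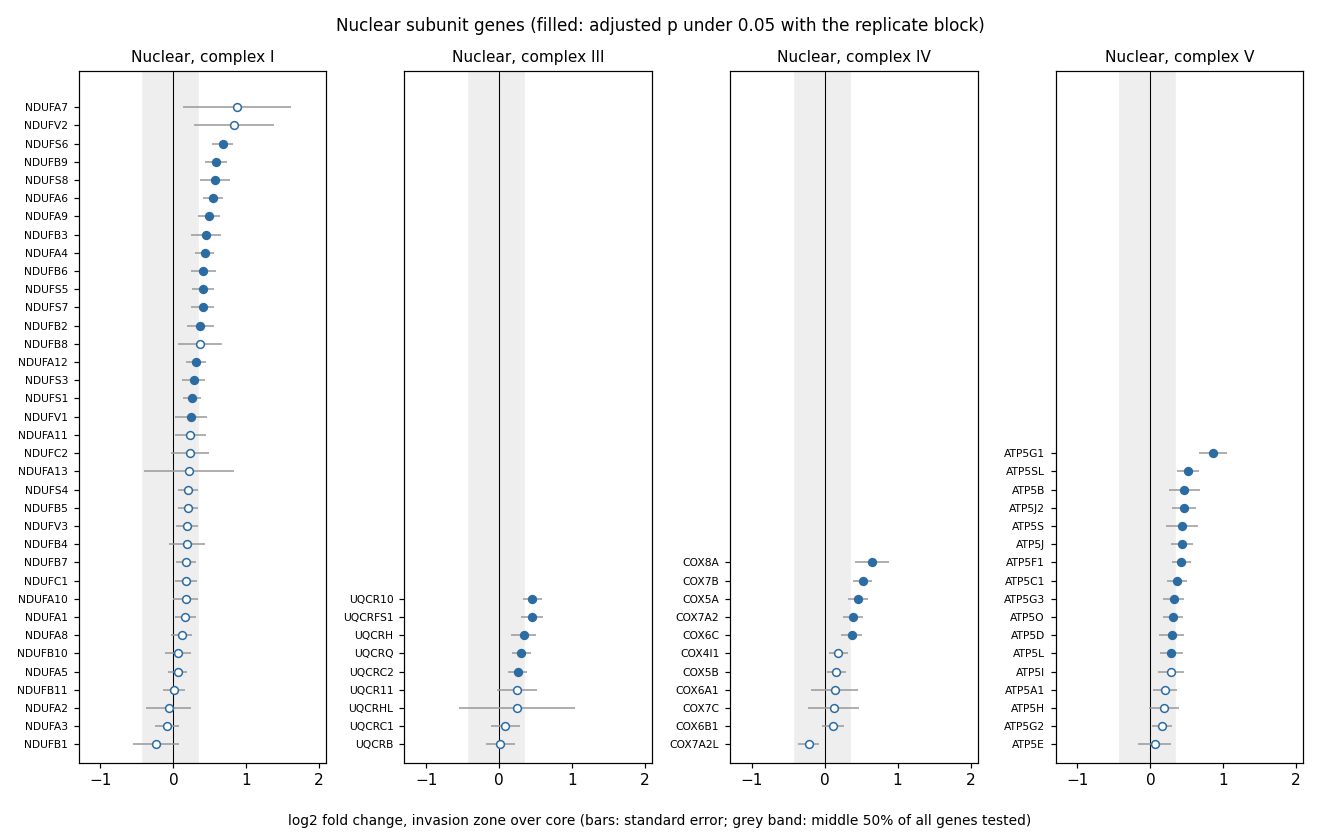
Log2 fold change (invasion zone over core, x axis) of the tested nuclear subunit genes by complex, 1 gene not being shown, with standard errors from the edgeR fit without a replicate term, n = 2 libraries per zone. Filled points mark the 37 genes called with the replicate block, and the grey band holds the middle 50% of all genes tested (-0.41 to 0.34), with ATP5G1 at 0.86 and NDUFB1 at -0.24.

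The promoters shown here are those of the nuclear gene with the highest fold change in each complex among those called with the block, and of the nuclear genes with the lowest fold changes. Promoter windows from RefSeq (GRCh38.p14), 250 bases before to 50 bases after the start of transcription, matched 64 of the 80 nuclear members. They were searched on both strands for NRF1 (GCGC, any base, then TGCGC), for the ETS element bound by GABPA (CCGGAAG) and for YY1 (AAGATGGC), factors known to act on respiratory genes, and capitals mark a match. The windows were chr5:1801157-1801456 on the plus strand for NDUFS6, chr22:29767119-29767418 on the plus strand for UQCR10, chr11:63974370-63974669 on the plus strand for COX8A, chr17:48892537-48892836 on the plus strand for ATP5G1 (now ATP5MC1), chr14:92121657-92121956 on the minus strand for NDUFB1 and chr2:42361168-42361467 on the minus strand for COX7A2L.
NDUFS6: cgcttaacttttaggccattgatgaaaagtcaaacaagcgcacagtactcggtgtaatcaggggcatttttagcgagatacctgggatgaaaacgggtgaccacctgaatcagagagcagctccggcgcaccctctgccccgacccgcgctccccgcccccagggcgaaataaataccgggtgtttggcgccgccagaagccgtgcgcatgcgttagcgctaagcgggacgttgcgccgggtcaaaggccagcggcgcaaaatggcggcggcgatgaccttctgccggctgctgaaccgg
UQCR10: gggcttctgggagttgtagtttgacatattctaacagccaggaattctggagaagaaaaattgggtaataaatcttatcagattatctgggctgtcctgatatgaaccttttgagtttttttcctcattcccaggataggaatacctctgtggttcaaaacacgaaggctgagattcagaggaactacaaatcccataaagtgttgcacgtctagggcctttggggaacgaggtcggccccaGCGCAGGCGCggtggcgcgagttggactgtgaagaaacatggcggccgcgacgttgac
COX8A: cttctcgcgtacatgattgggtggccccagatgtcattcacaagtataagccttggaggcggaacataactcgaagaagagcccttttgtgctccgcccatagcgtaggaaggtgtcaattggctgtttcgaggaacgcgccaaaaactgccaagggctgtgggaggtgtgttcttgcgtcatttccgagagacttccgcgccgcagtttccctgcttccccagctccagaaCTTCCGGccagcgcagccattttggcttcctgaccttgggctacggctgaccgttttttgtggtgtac
ATP5G1: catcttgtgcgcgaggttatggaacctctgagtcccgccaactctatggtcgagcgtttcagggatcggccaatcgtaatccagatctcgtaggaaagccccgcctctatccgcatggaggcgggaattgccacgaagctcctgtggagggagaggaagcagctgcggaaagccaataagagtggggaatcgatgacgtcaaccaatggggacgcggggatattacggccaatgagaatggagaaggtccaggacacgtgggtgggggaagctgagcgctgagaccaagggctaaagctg
NDUFB1: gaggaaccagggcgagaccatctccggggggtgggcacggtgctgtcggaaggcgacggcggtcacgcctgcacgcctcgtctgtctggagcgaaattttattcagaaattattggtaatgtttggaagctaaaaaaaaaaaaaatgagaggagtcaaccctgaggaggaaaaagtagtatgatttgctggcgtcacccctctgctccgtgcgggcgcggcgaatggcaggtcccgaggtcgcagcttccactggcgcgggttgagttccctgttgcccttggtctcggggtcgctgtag
COX7A2L: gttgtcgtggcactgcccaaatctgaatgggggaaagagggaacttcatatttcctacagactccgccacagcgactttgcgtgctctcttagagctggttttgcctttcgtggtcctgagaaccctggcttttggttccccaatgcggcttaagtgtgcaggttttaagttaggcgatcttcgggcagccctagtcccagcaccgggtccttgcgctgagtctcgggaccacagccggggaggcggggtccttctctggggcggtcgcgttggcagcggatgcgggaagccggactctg
UQCR10 held an NRF1 match that begins at position -8 relative to the start site, and COX8A an ETS match that begins at -18. ATP5G1 and NDUFS6, with the larger fold changes, held none of these letters in the window, nor did NDUFB1 and COX7A2L. Over the 64 member promoters, 21.9% held an NRF1 match, 26.6% an ETS match and 15.6% a YY1 match, against 11.8%, 19.0% and 5.40% of the 10834 promoters of tested genes and 6.28%, 10.7% and 3.03% of all 27305 promoters in the table. At least 1 of the 3 was present in 34 of the 64, or 53.1%, against 31.7% of tested genes' promoters. The share was similar in members called higher with the block (57.1% of 28) and in tested members not called (53.1% of 32). A match is a description of letters, and nothing was measured about binding.

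Mitochondrial mRNAs did not share the shift of their nuclear partners. Their median log2 fold change was -0.17, with 2 of 13 above 0 and 11 below. Within replicate 1 the median was -0.17 and within replicate 2 it was -0.03. Of the 13 genes, 8 were lower within both replicate numbers and 2 were higher within both. Over all genes tested, 40.9% were lower within both and 39.8% higher. The replicates differed by more than the zones, since replicate 2 lay below replicate 1 by a median of -0.64 (log2) in the core and -0.50 in the invasion zone. Leaving out single libraries turned the direction, the median being 0.21 without core replicate 1, 0.08 without replicate 2 of the invasion zone, -0.45 without core replicate 2 and -0.42 without replicate 1 of the invasion zone.

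Lowest of the 13 was MT-ND4, a proton-pumping subunit of complex I. It was at 1459 and 827 CPM in the core and 1075 and 649 CPM in the invasion zone, overlapping between zones but lower within each replicate number, with a log2 fold change of -0.41 (SE 0.36) and an edgeR adjusted p of 0.527 without and 0.00269 with the block. MT-ND5 was at 892 and 751 CPM in the core and 711 and 669 CPM in the invasion zone, without overlap, at -0.25 (SE 0.16). MT-ND6, the only protein gene encoded on the light strand, was at 231 and 148 CPM in the core and 183 and 129 CPM in the invasion zone, at -0.28 (SE 0.28). The libraries do not mark strand, so its reads cannot be told apart from those of the opposite precursor. All 3 were called lower with the block. MT-ND4L was at 100 and 91.9 CPM in the core and 76.6 and 89.9 CPM in the invasion zone, a difference made mostly by replicate 1, and it was not called with the block (edgeR adjusted p = 0.134). MT-ND1 (-0.07, SE 0.26), MT-ND3 (-0.05, SE 0.37) and MT-ND2 (-0.00088, SE 0.43) were near 0, with replicate 2 well under replicate 1 in both zones.

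MT-CYB, the cytochrome b of complex III, was at 1961 and 1292 CPM in the core and 1562 and 1044 CPM in the invasion zone, giving a log2 fold change of -0.32 (SE 0.29) that was called with the block (edgeR adjusted p = 0.00710). The complex IV genes went different ways. MT-CO1, the catalytic subunit that reduces oxygen, was at 601 and 586 CPM in the core and 741 and 682 CPM in the invasion zone, the one mitochondrial mRNA whose invasion zone libraries both stood above the core. Its log2 fold change was 0.26 (SE 0.14), with an edgeR adjusted p of 0.316 without and 0.0192 with the block. MT-CO2 went from 2315 CPM in the core to 1558 CPM in the invasion zone of replicate 1, and from 1376 to 1555 CPM in replicate 2, so its fold change of -0.25 (SE 0.27) joined opposite signs. MT-CO3 was at 1839 and 1240 CPM in the core and 1632 and 1228 CPM in the invasion zone, at -0.11 (SE 0.26).

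MT-ATP6 (-0.17, SE 0.32) and MT-ATP8 (0.06, SE 0.72) encode membrane subunits of the synthase. MT-ATP8 differed most between replicates, with 123 and 37.5 CPM in the core and 127 and 38.9 CPM in the invasion zone, so that the zones matched within each replicate number. Both are read from 1 transcript, and the end of MT-ATP8 is also the start of MT-ATP6, over 46 of the 207 bases of MT-ATP8, as shown by the reference mitochondrial genome (chrM:8527-8572, GRCh38, plus strand).
MT-ATP8 end and MT-ATP6 start: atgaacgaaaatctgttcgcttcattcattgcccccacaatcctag
A read inside those bases cannot be given to one gene alone. Nuclear copies of mitochondrial sequence, in 392 rows, held 1.38 to 1.49% as many counts as the 13 genes, mostly on MTATP6P1.

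**Figure D4:**
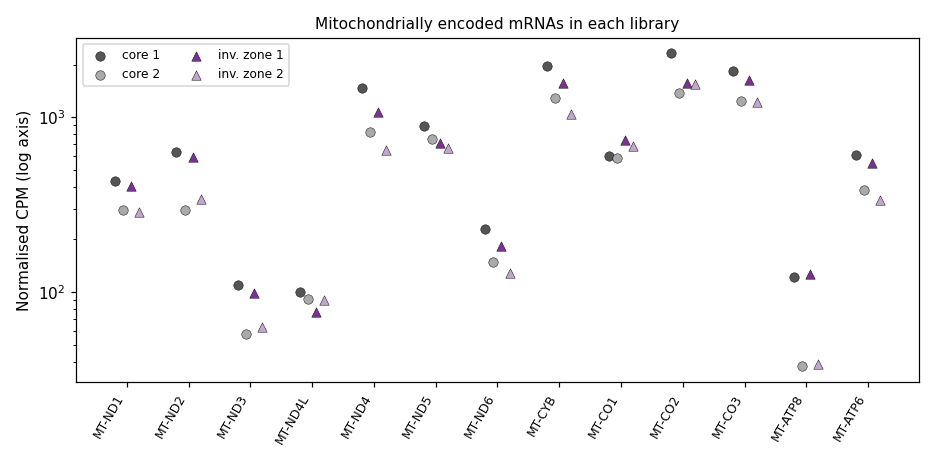
Normalised CPM (log axis) of the 13 mitochondrially encoded mRNAs in each library, circles for core and triangles for invasion zone, dark for replicate 1 and light for replicate 2. For MT-ATP8 the replicate 1 libraries (123 and 127 CPM) lie far above the replicate 2 libraries (37.5 and 38.9 CPM), while only MT-CO1 has both invasion zone points (741 and 682 CPM) above both core points (601 and 586 CPM).

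The ribosomal RNAs of the mitochondrion, whose reads may have been removed in part with other ribosomal RNA before counting, showed the same dependence on replicate. They took 0.602% and 0.389% of counts in the core and 0.498% and 0.343% in the invasion zone. MT-RNR1, the small subunit rRNA, was at 371 and 287 CPM in the core and 542 and 365 CPM in the invasion zone (log2 fold change 0.46, SE 0.25), and MT-RNR2, the large subunit rRNA, at 5750 and 3580 CPM in the core and 4452 and 3035 CPM in the invasion zone (-0.32, SE 0.31). The pair moved in opposite directions, each called with the block in edgeR (adjusted p = 0.00229 and 0.0117), but both overlapped between zones. The value of MT-RNR1 was 0.15 without replicate 1 of the invasion zone and 0.72 without replicate 2 of that zone, and that of MT-RNR2 turned to 0.074 without core replicate 1.

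Per length of transcript, mitochondrial mRNAs were as a group the most abundant members. Their median level was 423 CPM per kb, and MT-CO2 reached 2487 CPM per kb, against a median of 88.3 CPM per kb over tested nuclear members. Among nuclear subunits the housekeeping isoforms carried nearly all of the signal. COX6A2, the heart and muscle form, and COX7B2, a testis form, had 0 counts in all 4 libraries. A count of 0 leaves room for an expected count of up to about 3 in a library (95% limit). COX6A1 and COX7B were at 109 and 68.9 CPM per kb. COX7A1, the other muscle form, had 2 and 3 counts in the core and 7 and 1 in the invasion zone, beside 239 CPM per kb for COX7A2. COX6B2 had 4 and 5 counts in the core and 1 and 1 in the invasion zone, beside 371 CPM per kb for COX6B1. COX8C had 2 counts, both in invasion zone replicate 1, beside 121 CPM per kb for COX8A. ATP5L2 had 5 and 7 counts in the core and 10 and 1 in the invasion zone. These 6 genes did not pass the filter and were not tested, and no isoform exchange between zones was detectable at this depth.

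The tested isoforms that remained were COX6A1 at 0.14 (SE 0.32) and UQCRH at 0.34 (SE 0.17), the latter called with the block (edgeR adjusted p = 0.0104). UQCRHL, an intronless copy of UQCRH, had 29 and 12 counts in the core and 56 and 3 in the invasion zone, and reads from so similar a sequence cannot be assigned with certainty. Exons of several named genes overlap other genes, on either strand, in the annotation used. Among them were ATP5S (41.8% of exonic bases), UQCR10 (24.5%), ATP5E (23.2%), ATP5H (19.1%), NDUFB9 (13.2%), COX6A1 (13.1%), NDUFA2 (12.1%), COX6C (11.8%) and NDUFS1 (11.6%). These are shares of annotated bases and not of reads, and the effect on the counts was not tested. The 96 rows left out as pseudogenes or readthrough transcripts held 0.0844 to 0.210% as many counts as the nuclear members. The naming rule matches no NDUF pseudogenes, so these are not among the 96 rows and their counts were not summed.

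Genes of the chain that the naming rule leaves out, and genes that build or regulate the complexes, were followed as lists. With the block, 19.4% of all genes tested were called higher, as were 2686 of the 9550 with a mean of at least 10 CPM. Of 7 tested chain and synthase genes outside the rule, 5 were called higher with the block and 0 lower, with a median log2 fold change of 0.48. CYCS encodes cytochrome c, the carrier between complexes III and IV, and was at 37.4 and 51.5 CPM in the core and 80.1 and 98.3 CPM in the invasion zone, above the core in both, at 1.01 (SE 0.21, edgeR adjusted p = 0.130 without and 0.000130 with the block). NDUFA4L2, a relative of NDUFA4 known as a hypoxia-induced gene, had 47 and 22 counts in the core and 31 and 4 in the invasion zone, at -1.14 (SE 0.57, not called with the block). COX4I2, the other hypoxia-linked isoform, had 1 count in all. Complex II, which has no subunit encoded in mitochondrial DNA, gave 2 of 4 higher and 0 lower. Its log2 fold changes ran from SDHB at 0.40 (SE 0.13) to SDHA at -0.14 (SE 0.15).

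Most assembly factors also had fold changes above 0. For complex I, 6 of 16 were called higher with the block and 0 lower (median 0.27, but 0.14 without replicate 2 of the invasion zone), from NDUFAF2 at 1.05 (SE 0.21), measured at 8.10 and 10.3 CPM in the core and 18.4 and 19.6 CPM in the invasion zone, to NDUFAF3 at -0.06 (SE 0.14). For complex III, 5 of 6 were called higher (median 0.40), with BCS1L, which inserts the Rieske protein, at 0.72 (SE 0.31; 0.38 without core replicate 1 and 1.17 without core replicate 2) and TTC19 lowest at 0.19 (SE 0.15). For complex IV, 8 of 20 were called higher and 2 lower (median 0.29, but 0.19 without replicate 1 of the invasion zone and 0.47 without core replicate 1), from HIGD1A at 0.78 (SE 0.15) to COA5 at -0.59 (SE 0.21). For complex V the median over 4 was -0.09, with TMEM70, needed to assemble the c ring, called higher at 0.52 (SE 0.17) and ATPAF2 not called at -0.27 (SE 0.19).

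Nuclear genes for mitochondrial transcription and RNA stability gave 13 of 24 higher with the block and 0 lower, with a median log2 fold change of 0.33, beside the median of -0.17 in the mitochondrial mRNAs themselves. SLIRP, which stabilises mitochondrial mRNAs with LRPPRC, was at 128 and 108 CPM in the core and 226 and 194 CPM in the invasion zone, at 0.83 (SE 0.16), and MTERF4 was lowest at -0.21 (SE 0.14). Of 8 tested regulators of nuclear subunit genes, 4 were called higher and 1 lower (median 0.34, but 0.11 without replicate 2 of the invasion zone and 0.61 without core replicate 2). MYC was highest, at 82.2 and 105 CPM in the core and 158 and 182 CPM in the invasion zone (0.86, SE 0.18), and GABPA, which binds the ETS element searched above, was the one called lower, at -0.31 (SE 0.18), or -0.18 without replicate 1 of the invasion zone. PPARGC1A, a coactivator of mitochondrial biogenesis, had 8 and 19 counts in the core and 0 and 1 in the invasion zone and did not pass the filter.

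A list of 16 nuclear genes was drawn up as possible proxies of mitochondrial mass, which was itself not measured. Of their mRNAs, 12 were called higher with the block and 0 lower, with a median log2 fold change of 0.46. Those not called included TOMM20 at -0.06 (SE 0.13) and SLC25A6 at 0.04 (SE 0.22). TOMM40, the import channel of the outer membrane, was at 99.8 and 160 CPM in the core and 221 and 321 CPM in the invasion zone, at 1.06 (SE 0.30), and SLC25A4, an ADP/ATP carrier, was lowest at -0.32 (SE 0.17, not called). The lists were read against the same 19.4% of all genes called in each direction with the block, without matching for level. None was tested as a list.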

How the data were processed

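The deposited values are raw counts, which the authors made by filtering out ribosomal RNA (Bowtie), aligning to hg38 (STAR) and counting unique alignments on genes (HTSeq). For these tools, versions, annotation release and strand option were not given in the sources used here, and the cDNA kit does not mark strand. The table held 56306 gene rows, of which 2 repeated rows without counts were left out. Of the members, 1 gene is counted in the totals but not reported here by itself. Members and lists were chosen with earlier results of these data known.

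Genes were kept by edgeR's filterByExpr (10 counts at the median library size in 2 libraries, 15 in total), which left 15529. In R 4.3.3, edgeR 4.0.16 compared the zones by its quasi-likelihood test with TMM scaling and Benjamini-Hochberg adjustment over all of them, called at an adjusted p under 0.05. Standard errors were the fold change divided by the square root of F, in the fit without a replicate term. The block fit had its own standard errors, for MT-CYB 0.070 against 0.29 without a replicate term. CPM values use the TMM-scaled library total, and per-kb values divide them by the length of the GENCODE 44 canonical transcript. DESeq2 1.42.0, limma 3.58.1 voom, other scalings and filters, thinning, each library left out and a GC and length correction (known for 99.1% of genes) were alternatives. Both zones were punched from the same spheroids and the libraries of a replicate number have neighbouring library numbers, which was read as pairing, although no source used here states what the number marks. Across genes, deviations from the zone means correlated at 0.584 between libraries of one number (2 pairs). Libraries of 1 zone differed beyond sampling noise (chi-square per degree of freedom 33.8 in the core and 31.9 in the invasion zone). The named genes were the 13 mitochondrial genes, the 3 highest and 3 lowest nuclear genes of each complex, catalytic members, isoform pairs and the highest and lowest gene of each list, and other genes were chosen after their values were seen. Only the edgeR fits with and without the block were run on simulated counts, and the other procedures were not. Python 3.11.15 with matplotlib 3.10.9 drew the figures.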

Additional observations from a re-analysis of the deposited data

How the results depend on the processing

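Calls depended on how the replicate number was treated. Without a replicate term edgeR called 0 subunit genes higher under RLE, upper-quartile or mitochondria-free scaling, the stricter filter, thinning and the GC and length correction, and limma voom called 0. It called 5 without the low-count filter, DESeq2 called 5, and 21 passed an unadjusted p. The replicate block gave 38 higher and 4 lower, and adding the GC and length correction to it gave 44 and 9. Leaving out 1 library gave 0 to 2 higher (2 without invasion zone replicate 1) and 0 lower, the lone library of a zone being assumed to vary like the others. The block leaves 1 residual degree of freedom among the libraries, so its calls lean on the spread shared across genes, and among the named genes it moved 31 past the threshold and turned the sign of MT-ND2 alone.

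The nuclear median of 0.28 ran from 0.25 to 0.36 with 1 library left out. The mitochondrial median of -0.17 became -0.29 with the GC and length correction and -0.28 with the block added, and ran from -0.45 to 0.21 with 1 library left out. The share of counts on mitochondrial mRNAs, invasion zone minus core, was -0.106 percentage points and ran from -0.291 to 0.0793. Signs turned with 1 library left out for the lists of complex V assembly (-0.10 to 0.17) and mitochondrial rRNA (-0.24 to 0.37, and -0.0095 with the GC and length correction and -0.0017 with the block added). Among mitochondrial genes they turned for MT-ATP6 (-0.57 to 0.21), MT-ATP8 (-1.05 to 1.16), MT-CO2 (-0.57 to 0.19), MT-CO3 (-0.36 to 0.21), MT-CYB (-0.64 to 0.022), MT-ND1 (-0.34 to 0.24), MT-ND2 (-0.46 to 0.67), MT-ND3 (-0.44 to 0.51), MT-ND4 (-0.82 to 0.070), MT-ND6 (-0.56 to 0.083) and MT-RNR2 (-0.62 to 0.074). Among nuclear genes they turned for ATP5E (-0.16 to 0.33), ATP5H (-0.015 to 0.41), COX6A1 (-0.39 to 0.51), COX7C (-0.29 to 0.59), NDUFA2 (-0.47 to 0.27), NDUFA3 (-0.22 to 0.035), NDUFB1 (-0.69 to 0.089), NDUFV2 (-0.18 to 1.36), UQCRB (-0.17 to 0.25), UQCRC1 (-0.13 to 0.27) and UQCRHL (-1.65 to 0.89).

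With 1 library left out, the size but not the sign moved by over 1.5 times for the complex II list (0.0062 to 0.22) and, among genes called with the block and not described so above, for ATP5B (0.28 to 0.71), COX8A (0.43 to 0.93), UQCRH (0.18 to 0.48) and MT-ND5 (-0.36 to -0.11). ATP5B, COX8A and MT-ND5 were nearest to 0 without core replicate 1, and UQCRH without invasion zone replicate 1.

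Other settings turned the sign of genes near 0. MT-ND2 was 0.0075 with RLE, 0.0075 with DESeq2, 0.045 with the replicate block, 0.049 with limma voom and 0.023 after thinning. With the GC and length correction, without and with the block, COX7C was -0.020 and -0.013, MT-ATP8 -0.12 and -0.12, NDUFA3 0.022 and 0.022 and NDUFAF3 0.060 and 0.052. UQCRB was -0.016 with upper-quartile scaling and -0.0068 with at least 10 counts in every library. The causes were not tested. Depth limits the low-count members, such as NDUFA7, NDUFV2 and UQCRHL.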
